A study of Arabidopsis thaliana with 16 samples.

Results

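The genes described here are those of the Arabidopsis thaliana proteasome. They were chosen by their description in the deposited annotation: a gene on chromosomes 1 to 5 counted as a member where the text named a proteasome subunit of alpha type, one of beta type or the 26S proteasome. This gave 58 of the 32833 genes in the table. Of these, 54 encode subunits, and the subunit name in the description was the same as in a list of known Arabidopsis subunits for all 54. They are 13 genes of the 20S alpha ring, 11 of the 20S beta ring, 11 of the ATPase subunits (RPT) and 19 of the other subunits of the regulatory particle (RPN). The other 4 matched by wording and are not subunits of the proteasome. CSN1 belongs to the COP9 signalosome, a relative of the lid of the regulatory particle, and AT5G57950 carries a domain of the Nas2 type, named after an assembly chaperone of yeast. AT4G08140, with 2 counts over all libraries, and AT5G27607, with 0, had too few counts to be tested, which left 56 tested members. The pair of DSS1 genes, which encode a small subunit of the lid, falls outside the wording of the rule.

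The 26S proteasome takes up proteins marked with ubiquitin chains and cuts them into peptides. Its 20S core is a barrel in which outer alpha rings guard the entrance and inner beta rings carry the cutting sites. The 19S regulatory particle sits on the end of the barrel: RPN subunits bind ubiquitin chains and remove them, and a ring of RPT ATPases unfolds the protein and feeds it into the core. In plants many subunits are encoded by a pair of similar genes, and their transcripts are known to rise together when the proteasome is inhibited, through the NAC transcription factors NAC053 and NAC078.

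RNA came from untreated whole seedlings, 9 days old, raised on medium of 1/2 MS strength that held 1% sucrose. The 8 genotypes were the triple mutant nup50c nup82 nup136, the double mutants nup50c nup136, nup82 nup136 and nup50c nup82, the single mutants nup136, nup82 and nup50c, and wild type (WT, Col-0), each with 2 libraries. NUP50C, NUP82 and NUP136 belong to the basket on the inner face of the nuclear pore, the passage by which mRNA leaves the nucleus and proteins enter it. The labels name no allele beyond the gene, and how each allele was made is not given in the sources used here. No source says whether both libraries of a genotype stem from separately grown plants, so p-values measure only the spread between these samples, which may be technical.

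Library totals lay between 37923632 and 46194172 gene counts, and 22427 genes were tested. In every mutant labelled with it, NUP50C and NUP136 stood below WT: NUP50C at 8.88 to 14.1 CPM against 42.0 CPM in WT, and NUP136 at 19.4 to 28.7 CPM against 47.9 CPM in WT (genotype means; CPM is the library-scaled count, per 1e6 counts, after TMM). The libraries labelled nup82 nup136 differed in NUP136, at 33.9 and 23.4 CPM. NUP82 stood at 21.6 ± 0.164 CPM in the libraries labelled nup82, against 32.2 ± 3.86 CPM in WT (SD, n = 2 each). It was not low in the libraries labelled nup50c nup82 nup136, which held 37.1 ± 0.581 CPM. Between the single mutant and WT, those labelled nup82 nup136 had 27.5 ± 2.18 CPM, and nup50c nup82 was at 29.0 ± 3.06 CPM. These names, the triple mutant among them, therefore rest on the labels wherever they include nup82. The counts cover whole genes, so a transcript of a disrupted allele is counted too.

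The subunit genes were spread over a wide range of levels, compared here per kilobase of gene length. RPT2A, an ATPase subunit, was the most abundant at 132 ± 6.09 CPM per kb in the triple mutant and 109.8 ± 1.76 in WT (SD, n = 2 each). By WT level PAA1 came next, at 123 ± 2.85 CPM per kb in the triple mutant and 107.5 ± 0.987 in WT, close to RPT2A. At the other end of the tested members, PAC2, a second gene for an alpha subunit, reached 2.70 ± 0.0321 CPM per kb in the triple mutant and 2.05 ± 0.539 in WT, and RPN12B 1.71 ± 0.448 and 0.740 ± 0.191. These low genes rested on few reads: RPN12B had 82 and 59 counts in the triple mutant libraries, against 26 and 32 in WT, and PAC2 103 and 106, against 67 and 83. Of the 58 members, 19 overlap another annotated gene (among them RPT5B, RPT1A, PBB2, PBD1, PAF2 and RPN12A), and the labels give a strand-specific library but not the strand setting of the counting. How reads with several alignments were counted is not given either, so the split between similar copies, above all the neighbours RPT6A and RPT6B, is uncertain.

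Most subunit genes were higher in the triple mutant than in WT, each by a small amount. With an adjusted p under 0.05 (edgeR quasi-likelihood test, Benjamini-Hochberg over all 22427 genes), 37 of the 56 tested members were higher and 0 were lower. Over all tested genes 23.3% were called higher and 24.3% lower. The median log2 fold change of the members was 0.26, a ratio of 1.199, against a median of -0.00 for all tested genes. The members also differed little from each other: the SD of their log2 fold changes was 0.19, against 1.17 over all tested genes. The genes were not matched for level, and replicates of the members were closer too (median SD within a genotype 0.07 against 0.14, log2). Of the 37 called members, 36 rose by less than 1.5-fold, against 2660 of the 5229 higher genes overall. Summed over all members, the triple mutant held 5685 ± 32.1 CPM and WT 4780.2 ± 15.3 CPM (SD, n = 2 each), which puts the triple mutant at 119% of WT. In such bulk samples a change in the number of cells of a type and a change in RNA per cell cannot be told apart.

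The single libraries showed the same order. For 51 of 56 members (91.1%) both triple mutant libraries lay above both WT libraries, against 38.3% of all tested genes. For 37 members (66.1%) they lay above all other 14 libraries, against 16.7% of all tested genes. The highest genotype mean was that of the triple mutant for 52 members (92.9%), against 29% of all tested genes. The count of 37 depended on the libraries: it was 22 without WT replicate 2, and between 25 and 28 without WT replicate 1 or either triple mutant library. Of the 37 calls, 16 held whichever of these 4 libraries was left out, while the median stayed between 0.25 and 0.28 under all 10 other settings. The calls lost with some of these 4 libraries left out include those of PBD1, PBE1, RPT3, RPT5A, RPN2B, RPN5A, RPN7 and AT5G57950. No member was called lower by DESeq2 either, and 0 were lower at an unadjusted p under 0.05.

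**Figure D1:**
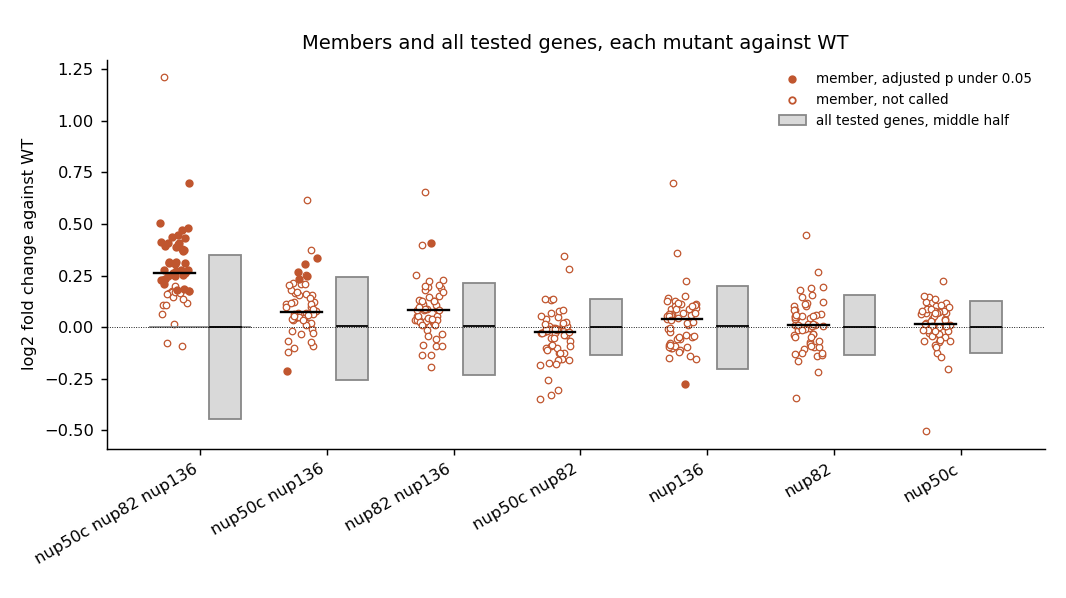
Log2 fold change of the 56 tested members (points, black line at the median) and of all tested genes (grey box from the lower to the upper quartile, black line at the median) for each mutant against WT. Filled points passed an adjusted p under 0.05. In the triple mutant the members centre on 0.26 while the box of all genes spans -0.44 to 0.35, and in the other mutants the members' medians lie between -0.02 and 0.08.

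In the alpha ring, 9 of 13 genes were higher in the triple mutant and 0 lower, with a median log2 fold change of 0.28. PAA2, a gene for the first alpha subunit, held 132 and 139 CPM in the triple mutant. In the other genotypes it held 110.3 and 125 CPM in nup50c nup136, 99.7 and 116 under the label nup82 nup136, 102 and 98.3 under the label nup50c nup82, 94.9 and 97.3 in nup136, 106 and 102 in nup82, 96.8 and 99.0 in nup50c, and 97.8 and 102 in WT. Both triple mutant libraries were thus above every other library, and both nup50c nup136 libraries were above both of WT, without overlap. PAA2 rose by 0.44 ± 0.08 on the log2 scale (SE, edgeR adjusted p = 7.12e-05). PAF1 held 142 and 139 CPM in the triple mutant, against 112 and 105 CPM in WT, a log2 fold change of 0.37 ± 0.07 (edgeR adjusted p = 0.000184). The genes of the alpha ring that were not called were PAA1, PAB2, PAC2 and PAD2. PAD2 held 46.0 and 50.1 CPM in the triple mutant and 45.7 and 46.3 CPM in WT, so the groups overlapped.

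The beta ring moved in a like manner, with 8 of 11 genes higher, 0 lower and a median of 0.28. PBB2, a gene for the subunit with trypsin-like activity, held 75.7 and 78.4 CPM in the triple mutant. It held 68.2 and 68.9 CPM in nup50c nup136, 58.4 and 69.6 under the label nup82 nup136, 56.7 and 53.5 under the label nup50c nup82, 58.6 and 62.0 in nup136, 57.4 and 57.4 in nup82, 52.1 and 53.9 in nup50c, and 55.9 and 55.2 in WT. The triple mutant libraries were again above all others, and by genotype mean nup50c nup136 came next. PBB2 rose by 0.47 ± 0.08 (log2, SE, edgeR adjusted p = 4.14e-05). PBA1, the subunit with caspase-like activity and a gene without a second copy among the members, held 128 and 127 CPM in the triple mutant, against 96.2 and 95.9 CPM in WT. Its libraries agree closely within each group, and it rose by 0.41 ± 0.07 (edgeR adjusted p = 3.35e-05). PBD1 held 42.1 and 42.1 CPM in the triple mutant, against 34.3 and 29.2 CPM in WT, and rose by 0.41 ± 0.10 (edgeR adjusted p = 0.00156). PBE1, a gene for the subunit with chymotrypsin-like activity, was among the smallest called changes at 0.21 ± 0.08 (edgeR adjusted p = 0.0271). PBB1, PBC1 and PBC2 were not called.

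In the ATPase ring 6 of 11 genes were higher and 0 lower, with a median of 0.18. RPT1A held 251 and 247 CPM in the triple mutant. It held 189.9 and 204 CPM in nup50c nup136, 195 and 195 under the label nup82 nup136, 174 and 171 under the label nup50c nup82, 192 and 188 in nup136, 175 and 179 in nup82, 189 and 188 in nup50c, and 178 and 174 in WT. Every other library lay at or below 204 CPM, and RPT1A rose by 0.50 ± 0.07 (log2, SE, edgeR adjusted p = 1.18e-06). RPT5B held 44.0 and 48.1 CPM in the triple mutant, against 35.8 and 30.3 CPM in WT, and rose by 0.48 ± 0.10 (edgeR adjusted p = 0.000414). RPT6B held 83.6 and 79.1 CPM, against 63.5 and 57.0 CPM in WT, and rose by 0.43 ± 0.08 (edgeR adjusted p = 0.000142). RPT3 and RPT5A stood at the low end of the called genes, with 0.19 ± 0.08 and 0.18 ± 0.07 (edgeR adjusted p = 0.0472 and 0.0373). RPT1B, whose description also lists a cyclophilin domain, had 82.8 and 75.4 CPM in the triple mutant and 79.3 and 89.5 CPM in WT, which overlap, and its log2 fold change was -0.09 ± 0.10 (edgeR adjusted p = 0.484).

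Among the RPN genes, 12 of 19 were higher, 0 lower, and the median was 0.25. RPN8B, a second gene for the lid subunit that pairs with the deubiquitinase RPN11, held 32.4 and 34.7 CPM in the triple mutant. It held 25.2 and 24.0 CPM in nup50c nup136, 25.1 and 29.8 under the label nup82 nup136, 22.3 and 23.0 under the label nup50c nup82, 21.1 and 23.0 in nup136, 21.3 and 23.1 in nup82, 22.9 and 21.8 in nup50c, and 19.97 and 21.4 in WT. The double mutants with nup136 lay between the triple mutant and WT. RPN8B rose by 0.70 ± 0.11 in the triple mutant (log2, SE, edgeR adjusted p = 5.80e-06), the only called member past 1.5-fold. RPN10, a ubiquitin receptor, held 178 and 178 CPM in the triple mutant, against 139 and 129.6 CPM in WT, and rose by 0.41 ± 0.08 (edgeR adjusted p = 0.000196). RPN13, another ubiquitin receptor, held 53.3 and 54.6 CPM, against 41.3 and 41.7 CPM in WT, and rose by 0.38 ± 0.08 (edgeR adjusted p = 0.000505). RPN11, the deubiquitinase of the lid, rose by 0.31 ± 0.08 (edgeR adjusted p = 0.00209). RPN5A and RPN7, both lid subunits, were among the smallest called changes, at 0.18 ± 0.07 and 0.23 ± 0.07 (edgeR adjusted p = 0.0438 and 0.0118).

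Of the large subunits of the base, RPN2B was called higher in the triple mutant and RPN1A, RPN1B and RPN2A were not called. RPN1A, where shuttle proteins and UBP6 dock, held 154 and 149.7 CPM in the triple mutant. It held 142 and 134 CPM in nup50c nup136, 145 and 135 under the label nup82 nup136, 129 and 139 under the label nup50c nup82, 134 and 130.3 in nup136, 143 and 142 in nup82, 174 and 164 in nup50c, and 158 and 162 in WT. All libraries of every mutant but nup50c lay below both of WT. The change was called in nup136, where RPN1A fell by 0.27 on the log2 scale (SE 0.07, edgeR adjusted p = 0.0106), and in nup50c nup136, where it fell by 0.21 (SE 0.07, edgeR adjusted p = 0.0335). In the triple mutant it was -0.08 ± 0.07 and was not called (edgeR adjusted p = 0.395). RPN2A, the scaffold beside it, held 171 and 159.6 CPM in the triple mutant and 165 and 162 CPM in WT, which overlap. RPN12B had the largest log2 fold change of all members, 1.21 ± 0.53, at the low counts given above, and did not pass (edgeR adjusted p = 0.0608). DSS1(I), the lid subunit outside the rule, had a log2 fold change of 0.01 ± 0.15 (edgeR adjusted p = 0.95).

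Both tested members that are not subunits were called higher too. CSN1 held 75.2 and 76.6 CPM in the triple mutant, against 57.0 and 54.5 CPM in WT, and rose by 0.45 ± 0.08 (log2, SE, edgeR adjusted p = 4.89e-05). AT5G57950 held 21.0 and 18.6 CPM, against 16.0 and 14.1 CPM in WT, and rose by 0.39 ± 0.12 (edgeR adjusted p = 0.0099). Leaving both out, 35 of 54 subunit genes were higher, with a median of 0.26.

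**Figure D2:**
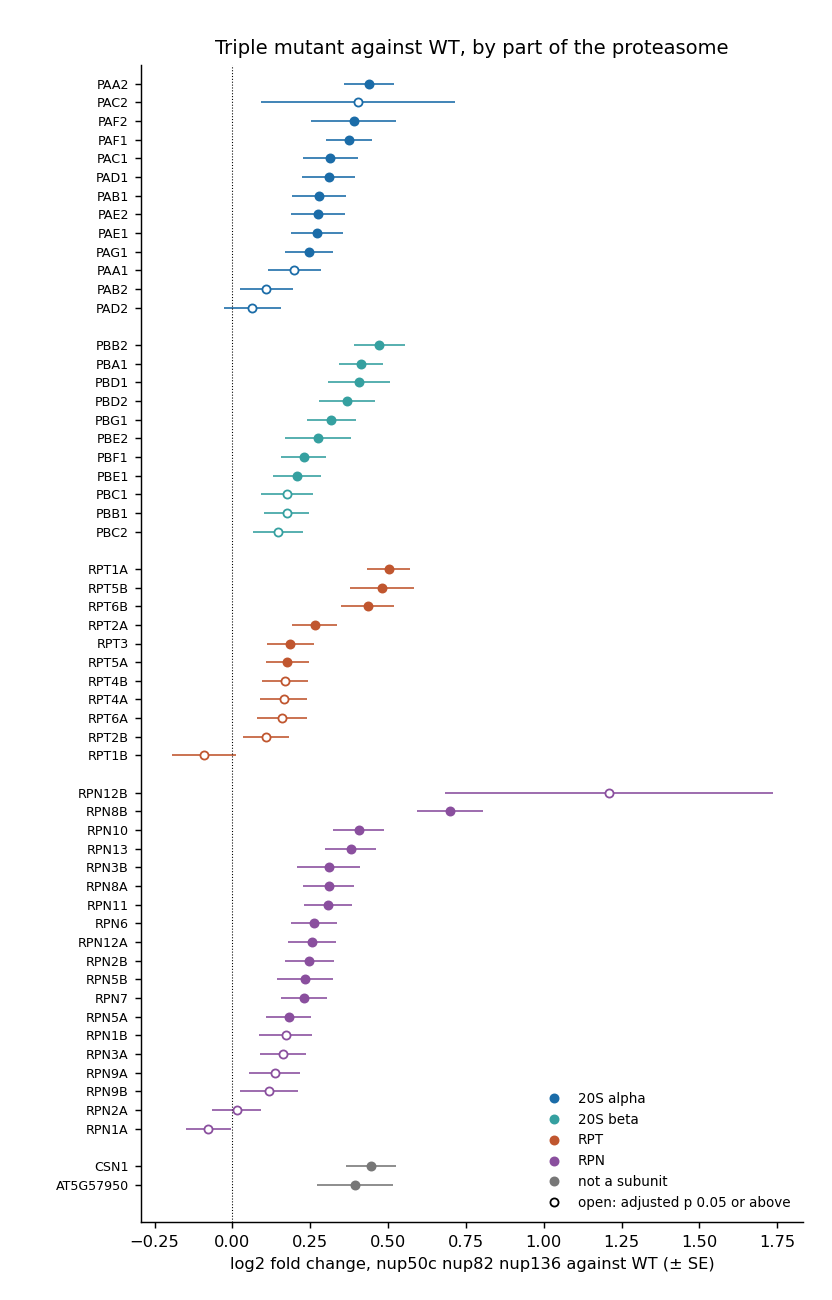
Log2 fold change of each tested member in nup50c nup82 nup136 against WT (points, horizontal bars ± SE), sorted within each part of the proteasome. Filled points passed an adjusted p under 0.05, and all filled points lie to the right of 0, from 0.18 for RPT5A to 0.70 for RPN8B.

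Sums were also taken over core and regulatory particle. The 20S genes together held 2289 ± 37.8 CPM in the triple mutant and 1884 ± 12.1 CPM in WT, or 122% of WT. The 19S genes held 3300 ± 5.01 CPM in the triple mutant and 2825 ± 0.141 CPM in WT, or 117% of WT (SD, n = 2 each). The sum of all members was 105% of WT in nup50c nup136 and 104% in nup82 nup136, and in the other mutants 97.0% to 103%.

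The other 6 mutants moved few members. The counts here are with TMM scaling, and library totals alone gave more in nup136, nup50c nup136 and nup82 nup136, as listed in the part on processing. Against WT, nup50c nup136 had 5 members higher and 1 lower, where 11.7% of all tested genes were higher and 13.1% lower. The 5 were PBB2 at 0.30 ± 0.08, CSN1 at 0.27 ± 0.08, RPN13 at 0.25 ± 0.08, PAA2 at 0.24 ± 0.08 and AT5G57950 at 0.33 ± 0.12 (log2, SE, edgeR adjusted p = 0.0083 to 0.0464), and the member that fell was RPN1A. This share of 5 in 56 is close to the background. It was also unstable: 9 members were higher without nup50c nup136 replicate 1, 1 without its replicate 2, 2 without WT replicate 1 and 0 without WT replicate 2, while RPN1A was not called in any of these 4 fits. The libraries labelled nup82 nup136 had 1 member higher (RPN8B at 0.41 ± 0.11, edgeR adjusted p = 0.00719) and 0 lower, against 7.95% and 11.3% of all tested genes. Without WT replicate 1 this count was 0, and without replicate 1 of the libraries labelled nup82 nup136 it was 3. At an unadjusted p under 0.05, 1 was lower, and DESeq2 called 1 lower.

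In the single mutants and nup50c nup82 the subunit genes stayed near WT. In nup136, 0 were higher and 1, RPN1A, was lower, where 6.56% of all tested genes were higher and 7.83% lower. For the higher direction, 2 passed an unadjusted p under 0.05 and DESeq2 called 0. RPN1A was not called without WT replicate 2 or without nup136 replicate 2, and 1 member was called higher without nup136 replicate 1. In nup50c, 0 members were called in either direction (0.923% and 0.812% of all tested genes), 1 was higher and 0 lower at an unadjusted p under 0.05, and DESeq2 called 0. In the libraries labelled nup82, 0 were called (0.856% and 0.535%), 4 were higher and 2 lower at an unadjusted p under 0.05, and DESeq2 called 0. In those labelled nup50c nup82, 0 were called (0.562% and 0.343%), 1 was higher and 7 lower at an unadjusted p under 0.05, and DESeq2 called 0 higher and 1 lower. All 7 comparisons with WT share its libraries. The members' medians were 0.26 in the triple mutant, 0.07 in nup50c nup136, 0.08 in nup82 nup136, -0.02 in nup50c nup82, 0.04 in nup136, 0.01 in nup82 and 0.01 in nup50c.

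**Figure D3:**
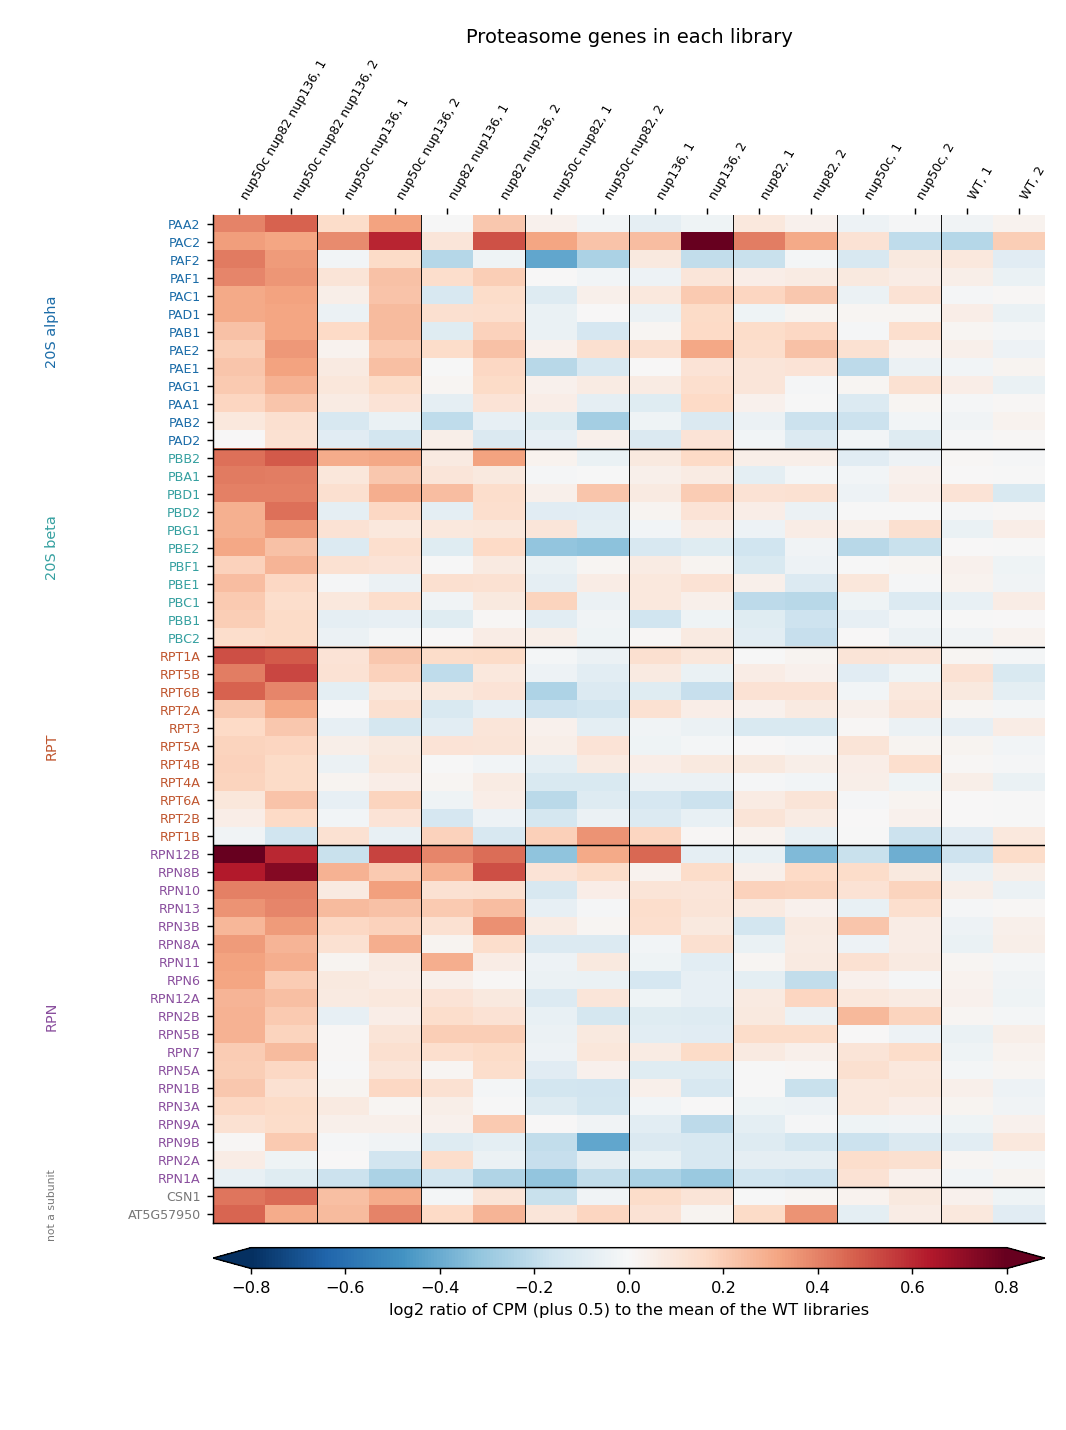
Log2 ratio of each member's CPM (with an offset of 0.5) to the mean of the WT libraries, in all 16 libraries from the triple mutant at the left to WT at the right, with members grouped by their part of the proteasome. The medians over members are 0.26 and 0.27 in the triple mutant libraries, 0.04 and 0.13 in nup50c nup136, 0.04 and 0.11 in nup82 nup136, and between -0.06 and 0.03 in the others.

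Whether the subunits move together was described over the 8 genotype means of log2 CPM. The median Pearson r over all 1540 pairs of tested members was 0.66, and 71.8% of the pairs had an r above 0.5. Without the triple mutant the median was 0.29 and the share 30.6%, so much of the likeness rests on that genotype. The points share libraries and scaling, and 8 means are few, so these values are a description. Pairs of other genes were not measured, so neither share of pairs has a background. With the mean of the other members, 51 of 56 had an r above 0.5, led by RPT1A at 0.98, PAF1 at 0.98, PAD1 at 0.97 and PBG1 at 0.97. RPT1B ran against the others at -0.59, and RPN1A, PAC2, RPN2A and PAD2 lay between 0.14 and 0.39. Among all other tested genes, 30.7% had an r above 0.5 with the members' mean and 30.9% one below -0.5. Replicate libraries of the members were close, with a median SD within a genotype of 0.07 on the log2 scale, against 0.14 over all tested genes.

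The protein-coding genes outside the set whose pattern was most like the members' mean, over the 8 genotype means and at 10 CPM or more, had an r of 0.99 each. They were AT1G18070, described by its likeness to a peptide chain release factor of mouse; LOS2, an enolase; SAPX, an ascorbate peroxidase of organelles; AT4G15420, described by its likeness to yeast UFD1, which helps to extract ubiquitin-marked proteins; and MFP2, of peroxisomal fatty acid oxidation. Their log2 fold changes in the triple mutant ran from 0.25 for AT1G18070 to 1.39 for MFP2. The ranking by r takes no account of the size of a change.

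Each mutation was then followed into the triple mutant. Loss of nup136 was measured in 4 backgrounds that share no library. In the nup50c nup82 background, that is the triple mutant against the libraries labelled nup50c nup82, 43 members were higher and 1 lower, against 22.3% and 24% of all tested genes, with a median of 0.29. The leading members were PAF2 at 0.74 ± 0.14, RPT6B at 0.61 ± 0.09, PBE2 at 0.60 ± 0.11 and RPN8B at 0.57 ± 0.11 (log2, SE, edgeR adjusted p = 9.90e-05, 1.66e-06, 4.47e-05 and 8.76e-05). Against WT the triple mutant gave 0.39, 0.43, 0.28 and 0.70 for them. In nup50c nup82, PAF2 held 10.6 and 11.9 CPM (WT 15.2 and 13.4) and PBE2 23.3 and 23.2 CPM (WT 29.3 and 29.1). RPT6B was also below WT there, and RPN8B was above it. The member that fell was RPT1B, at -0.37 ± 0.10 (edgeR adjusted p = 0.00453). It held 82.8 and 75.4 CPM in the triple mutant, against 96.6 and 108 CPM in nup50c nup82, the genotype with its highest mean. This call was lost without nup50c nup82 replicate 2 or triple mutant replicate 2.

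In the other backgrounds the loss of nup136 moved few members. In the nup50c background 5 were higher and 2 lower (12.9% and 14.1% of all tested genes), with a median of 0.06. PBB2 rose by 0.37 ± 0.08 there, PAE1 by 0.29 ± 0.08, PAA2 by 0.26 ± 0.08, AT5G57950 by 0.35 ± 0.12 and CSN1 by 0.21 ± 0.08 (log2, SE, edgeR adjusted p = 0.00159 to 0.0467). RPN1A fell by 0.29 and RPN2B fell by 0.23 (edgeR adjusted p = 0.00425 and 0.0319). The counts were 1 higher without nup50c replicate 1, 3 without nup50c replicate 2 and 1 without nup50c nup136 replicate 2, with 0, 1 and 1 lower. In the nup82 background 3 were higher and 0 lower (8.92% and 12.6%), with a median of 0.07: RPN8B at 0.31 ± 0.11, RPN3B at 0.29 ± 0.10 and PBC1 at 0.24 ± 0.08 (edgeR adjusted p = 0.0408, 0.0429 and 0.0356). Here 0 were higher without nup82 replicate 1, 1 without nup82 replicate 2, and 1 higher and 1 lower without replicate 2 of nup82 nup136. For the lower direction, 1 member passed an unadjusted p under 0.05 and DESeq2 called 0. Of the 56 members, 19 had a positive log2 fold change in all 4 backgrounds, 19 in 3, 16 in 2 and 2 in 1.

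The difference between these effects was tested directly, in a comparison added after the data were seen. With its sign, the effect of nup136 in the nup50c nup82 background was higher than in WT for 29 members and lower for 1. Over all tested genes 11.5% were higher and 12.7% lower. A higher value need not be a larger effect: RPN1A went from -0.27 in WT to 0.18 in nup50c nup82. The median difference was 0.30 on the log2 scale. It was 0.75 ± 0.12 for RPT6B and 0.42 ± 0.10 for RPT1A, and the member in the other direction was RPT1B at -0.47 ± 0.15 (SE, edgeR adjusted p = 3.65e-05, 0.00203 and 0.021). The regulatory particle gave 18 of 30 higher and the 20S core 10 of 24. The count of 29 became 18 without triple mutant replicate 1, 16 without its replicate 2, 16 without nup50c nup82 replicate 1, 19 without nup136 replicate 1, 16 without WT replicate 1 and 19 without WT replicate 2. RPT1B was not called without WT replicate 1, nup136 replicate 1, nup50c nup82 replicate 2 or triple mutant replicate 2.

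**Figure D4:**
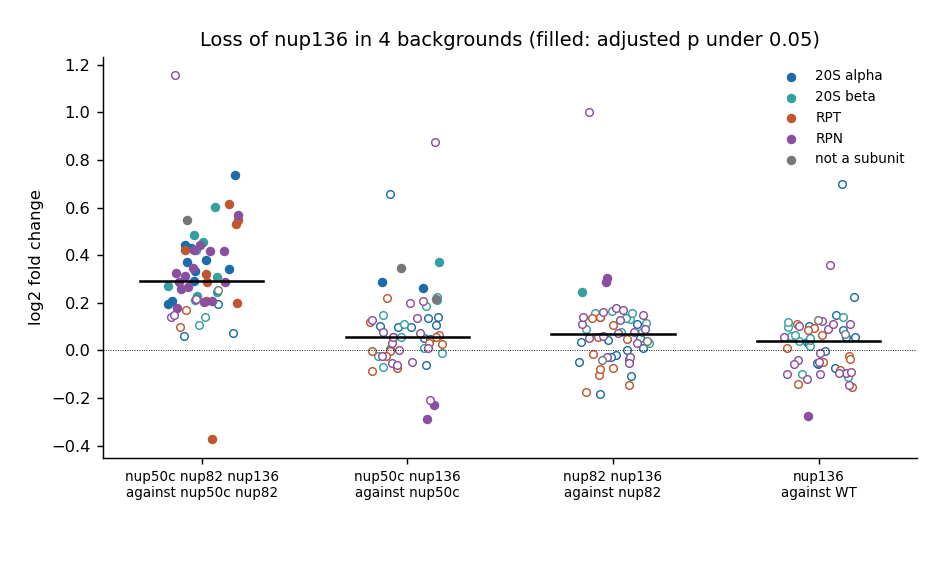
Log2 fold change of each tested member on loss of nup136 in 4 backgrounds, coloured by part of the proteasome, with a black line at the median and filled points at an adjusted p under 0.05. The median is 0.29 in the nup50c nup82 background and 0.06, 0.07 and 0.04 in nup50c, nup82 and WT.

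Members were also higher in the triple mutant than in either double mutant that carries nup136. Against nup50c nup136, the triple mutant had 13 higher and 0 lower (10.1% and 11.9% of all tested genes) and a median of 0.17, with 0 lower at an unadjusted p under 0.05 and 0 by DESeq2. RPN8B, at 0.45 ± 0.11, RPT6B, at 0.43 ± 0.08, and RPT1A, at 0.34 ± 0.07, led (log2, SE, edgeR adjusted p = 0.00255, 0.000499 and 0.0006). The 13 became 4 without nup50c nup136 replicate 1, 6 without triple mutant replicate 1 and 3 without triple mutant replicate 2. Against the libraries labelled nup82 nup136, 20 were higher and 0 lower (14.9% and 14.9%) and the median was 0.18, with 0 lower at an unadjusted p under 0.05 and 0 by DESeq2. RPT5B rose by 0.54 ± 0.10, PAF2 by 0.52 ± 0.14, CSN1 by 0.40 ± 0.08 and RPT2A by 0.36 ± 0.07 (edgeR adjusted p = 0.00027, 0.00478, 0.000376 and 0.000414). The 20 became 9 without nup82 nup136 replicate 1, 8 without triple mutant replicate 1 and 8 without triple mutant replicate 2. These comparisons share the triple mutant libraries.

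Few members were called in the terms for pairs of mutations and in the three-way term. The difference of nup136 effects given above, with 29 members higher and 1 lower, is also a departure from additivity. The terms for a pair of mutations compare a double mutant with the sum of its single effects on the log2 scale, and each called 0 members in either direction. For nup50c with nup82, 2.31% of all tested genes were higher and 2.48% lower, 2 members were higher and 6 lower at an unadjusted p under 0.05, and DESeq2 called 0 and 3. For nup50c with nup136 the shares were 2.45% and 2.72%, with 3 and 0 members at an unadjusted p under 0.05 and 0 and 0 by DESeq2. For nup82 with nup136 they were 3.44% and 5.33%, with 3 and 2 members at an unadjusted p under 0.05 and 0 and 0 by DESeq2. The three-way term called 4 members higher and 0 lower, against 5.09% and 4.46% of all tested genes, a share close to the background, with 1 lower at an unadjusted p under 0.05 and 0 by DESeq2. The 4 were RPT2A at 0.66 ± 0.14, PAC1 at 0.56 ± 0.18, RPN10 at 0.54 ± 0.16 and RPT1A at 0.44 ± 0.14 (log2, SE, edgeR adjusted p = 0.00353, 0.0446, 0.0338 and 0.0409). With a library left out the 4 became 1 to 7: 1 without any of 8 libraries (nup82 replicates 1 and 2, both of the triple mutant, nup50c nup136 replicate 1, nup50c nup82 replicate 1, nup50c replicate 2 and WT replicate 2), 2 without nup82 nup136 replicate 1 and 7 without its replicate 2.

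For 22 subunits encoded by a pair of genes, the copies were compared in the triple mutant. Both copies were called higher in 7 pairs, 1 copy in 11 and neither in 4. In 15 of 22 pairs the copy with the lower level per kb in WT had the larger log2 fold change. Some of these differences were below the SE of either copy, as in PAE (0.003) and PAF (0.016). The same WT libraries named the lower copy and entered the fold change, which can favour this direction, most of all in pairs of similar level. The higher copy took over 60% of its pair's WT level in 18 of 22 pairs. The pairs whose copies differed most were RPN12, RPT1, RPN8, RPT5, PBB and RPT6. RPN8A took 80.9% ± 1.27 of its pair's level per kb in the triple mutant and 84.8% ± 0.0201 in WT, as RPN8B rose more than RPN8A (0.70 against 0.31 on the log2 scale). PBB1 took 61.7% ± 1.08 in the triple mutant and 66.5% ± 0.314 in WT, with log2 fold changes of 0.47 for PBB2 and 0.17 for PBB1. RPT5A took 73.2% ± 1.25 and 77.1% ± 1.75, and RPT6A 55.6% ± 2.62 and 60.3% ± 1.82, in the same groups. RPT1 went the other way, since the major copy RPT1A took 84.8% ± 0.703 in the triple mutant and 78.7% ± 1.69 in WT (all SD, n = 2). No test was made of these shares. Between near-identical copies they depend on how shared reads were counted. The RPT1 share also depends on the deposited lengths, 3522 bases for RPT1B and 1984 for RPT1A. Whether all RPT1B counts come from the RPT1 part of that gene was not tested.

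**Figure D5:**
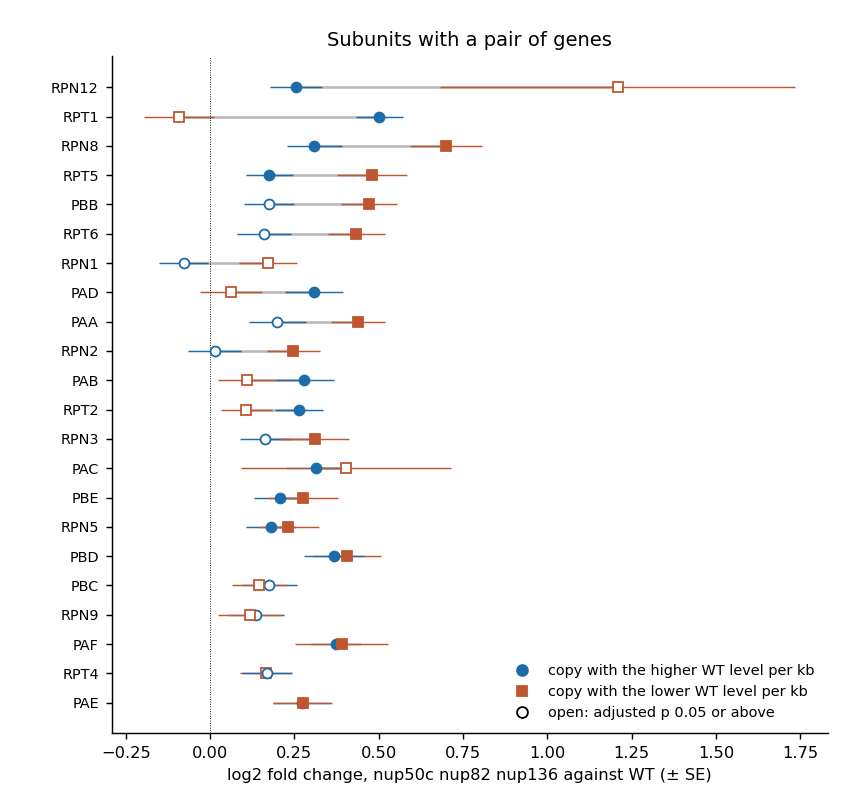
Log2 fold change in nup50c nup82 nup136 against WT (± SE) for both copies of 22 subunits, sorted by the difference between copies. Circles mark the copy with the higher level per kb in WT and squares the other copy, filled where the adjusted p was under 0.05. In 15 of 22 pairs the square lies to the right, in some of them by less than the SE.

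The promoters were searched because many members moved together. The letters TGGGC, on either strand of the 250 bases before the annotated start, are known as the core bound by NAC053 and NAC078. They occur in 27 of 54 subunit genes (50%), against 22.7% of 27436 protein-coding genes. These windows were not trimmed, so where another gene lies close upstream they include its sequence. PBD2, PBG1, RPN12A, RPN5A and RPN9B have 0 free bases before their start. Many others have fewer than 250, both with TGGGC, such as PBF1 with 11, and without it, such as PAE2 with 11. The longer forms, which overlap it, gave 38.9% against 13.7% for TGGGCC and 35.2% against 12.3% for TGGGCT. An element common in promoters of genes for translation, AACCCTA, gave 7.41% against 6.56%. Of the 27 subunit genes with TGGGC, 18 were higher in the triple mutant (median 0.27), and of the 27 without it 17 were (median 0.23). A match is a run of letters and not a shown binding site, and which factor binds it, if any, was not tested. The subunit genes were not matched for level with the protein-coding genes.

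The promoters below are those of the leading called subunit gene in each part of the proteasome (RPN8B, RPT1A, PBB2 and PAA2) and, for contrast, of RPN1A, which was lower in nup136. They were cut from the RefSeq genome of build TAIR10.1, where all 58 members have the start and end given in the deposited table, and are written 5′ to 3′ in the direction of the gene, with TGGGC on either strand in capitals.
RPN8B, chr3:3528551-3528800, plus strand: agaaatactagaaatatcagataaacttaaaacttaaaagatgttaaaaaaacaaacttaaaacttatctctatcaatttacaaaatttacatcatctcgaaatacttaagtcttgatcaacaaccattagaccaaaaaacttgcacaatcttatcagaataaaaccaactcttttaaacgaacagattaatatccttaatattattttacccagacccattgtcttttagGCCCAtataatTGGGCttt
RPT1A, chr1:20068501-20068750, minus strand: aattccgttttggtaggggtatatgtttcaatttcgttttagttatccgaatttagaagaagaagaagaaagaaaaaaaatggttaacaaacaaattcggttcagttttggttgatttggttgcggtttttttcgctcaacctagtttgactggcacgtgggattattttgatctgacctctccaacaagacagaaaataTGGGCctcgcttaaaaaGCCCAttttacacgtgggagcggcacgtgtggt
PBB2, chr5:16250926-16251175, minus strand: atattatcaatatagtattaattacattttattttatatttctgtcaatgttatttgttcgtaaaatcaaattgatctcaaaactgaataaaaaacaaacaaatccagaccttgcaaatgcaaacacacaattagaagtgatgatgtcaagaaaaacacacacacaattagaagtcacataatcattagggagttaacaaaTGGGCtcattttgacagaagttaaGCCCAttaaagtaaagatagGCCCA
PAA2, chr2:2233769-2234018, plus strand: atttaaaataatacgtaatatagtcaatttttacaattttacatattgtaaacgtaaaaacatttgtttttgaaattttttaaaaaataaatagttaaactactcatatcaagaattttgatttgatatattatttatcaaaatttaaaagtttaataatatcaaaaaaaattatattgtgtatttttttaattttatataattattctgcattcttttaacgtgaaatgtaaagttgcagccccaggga
RPN1A, chr2:8858712-8858961, plus strand: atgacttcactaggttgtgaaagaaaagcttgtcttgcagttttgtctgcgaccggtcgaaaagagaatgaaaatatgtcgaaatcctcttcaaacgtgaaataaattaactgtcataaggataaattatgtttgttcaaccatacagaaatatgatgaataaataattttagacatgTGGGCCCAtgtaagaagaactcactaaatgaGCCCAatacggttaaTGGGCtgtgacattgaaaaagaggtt
RPN8B and RPT1A hold 2 matches each and PBB2 holds 3, all near the start. PAA2 holds 0, although it rose by 0.44, and RPN1A holds 4, although it was not called in the triple mutant. None of these 5 stretches overlaps another annotated gene.

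Genes that act with the proteasome were counted in 2 further lists. Of 13 tested regulators, assembly factors and activators, 6 were higher in the triple mutant and 0 lower, with a median of 0.18 and 6 and 0 at an unadjusted p under 0.05. The shares over all tested genes were 23.3% higher and 24.3% lower. NAC053 held 40.5 and 38.9 CPM in the triple mutant, against 32.2 and 29.7 CPM in WT, and rose by 0.36 ± 0.10 (log2, SE, edgeR adjusted p = 0.00504). NAC078 held 78.6 and 78.0 CPM, against 62.4 and 62.3 CPM in WT, and rose by 0.33 ± 0.08 (edgeR adjusted p = 0.00138). Both transcription factors were thus higher without overlap. UBP6, a deubiquitinase of the proteasome, rose by 0.38 ± 0.07 (edgeR adjusted p = 8.59e-05). AT3G15180, which carries a proteasome domain of non-ATPase type, rose by 0.44 ± 0.11, and AT2G03430, an ankyrin repeat gene listed as an assembly chaperone, by 0.39 ± 0.15 (edgeR adjusted p = 0.00142 and 0.0426). AT3G18940, the sixth, was named after its value was seen and rose by 0.31 ± 0.10 (edgeR adjusted p = 0.0154). UMP1A, PTRE1, ECM29, UBP7, UCH1 and UCH2 were not called, with log2 fold changes between -0.06 for ECM29 and 0.18 for UCH2. PA200, an activator that caps the 20S core, held 62.8 and 58.2 CPM in the triple mutant and 66.8 and 70.2 CPM in WT. It was not called either (-0.18 ± 0.09, edgeR adjusted p = 0.101). In nup50c nup136, nup82 nup136 and nup136, PA200 fell by 0.41, 0.29 and 0.34 (edgeR adjusted p = 0.0011, 0.0223 and 0.0112).

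The other list held 25 genes for ubiquitin, its activation and the CDC48 segregase, which pulls ubiquitin-marked proteins out of complexes. In the triple mutant 13 were higher and 1 was lower (23.3% and 24.3% of all tested genes), with a median of 0.25. UBQ10, a polyubiquitin gene, held 1634 and 1619 CPM in the triple mutant, against 759 and 691 CPM in WT. It also held 1193 and 1164 CPM in nup50c nup136, and rose in the triple mutant by 1.17 ± 0.08 (log2, SE, edgeR adjusted p = 3.65e-12), more than any called subunit gene. UBQ4 and UBQ14 rose by 0.78 ± 0.09 and 0.76 ± 0.08 (edgeR adjusted p = 8.12e-08 and 1.94e-08). CDC48B, a second gene for the segregase, held 37.1 and 32.2 CPM, against 18.5 and 20.4 CPM in WT, and rose by 0.83 ± 0.11 (edgeR adjusted p = 1.13e-06). CDC48A, the abundant copy, held 529 and 522 CPM, against 480 and 459 CPM in WT, and did not pass (0.16 ± 0.07, edgeR adjusted p = 0.065). The lower gene was UBQ3, named after its value was seen, which fell by 0.27 (edgeR adjusted p = 0.0163). Polyubiquitin genes share repeats, so their split is uncertain.

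Organ markers differed between the genotypes too. Beside the counts for the triple mutant below stand the shares of all tested genes, 23.3% higher and 24.3% lower. The summed CPM of 8 green tissue genes, all 8 of them lower, was 65.6% of WT in the triple mutant, at 21441 ± 287 against 32661 ± 1265 CPM in WT. Of 10 root genes 6 were lower and 0 higher, with a median log2 fold change of -1.40. Their sum was 87.9% of WT, at 2661 ± 42.1 against 3029 ± 46.0 CPM in WT, but nearly all of it came from 1 gene, PYK10, which held 2567 and 2628 CPM in the triple mutant and 2942 and 2877 CPM in WT and was not called (-0.16 ± 0.09, edgeR adjusted p = 0.128). Without PYK10, a split chosen after the values were seen, the root sum was 53.5% of WT, at 64.1 ± 0.767 against 119.7 ± 0.161 CPM in WT. The 6 called root genes, CASP1, CASP2, EXPA7, COBL9, RHD6 and PLT1, had log2 fold changes between -1.65 and -1.34. The sum of 7 genes of dividing cells, 1 higher and 2 lower, was 89.0% of WT, at 212 ± 3.96 against 239 ± 8.65 CPM (SD, n = 2 each). No marker gene was at 0 in any genotype, and the labelled tissue, whole seedlings, holds both organs. In nup50c nup136, nup82 nup136 and nup136 the green sums were 80.4%, 83.4% and 83.2% of WT and the root sums without PYK10 62.5%, 74.9% and 76.6% (61.3%, 65.9% and 66.2% with it), while the members' sums were 105%, 104% and 101%. The part of organ makeup in the members' change was not tested.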

How the data were processed

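RNA of 16 samples was sequenced as strand-specific mRNA libraries, per the labels' protocols. HISAT2 2.0.4, HTSeq 0.6.1p1 and the genome build TAIR10 are named in the submitters' processing notes, without their roles. The deposited values are whole-number counts per gene, not normalized by the authors. Whether counting used the strand, and how it handled multi-mapping reads, is not given in the sources used here. The gene lengths are also the authors'. The deposited FPKM were not used.

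Genes were filtered with filterByExpr (minimum count 10). One quasi-likelihood fit in edgeR 4.0.16 (R 4.3.3, robust, TMM scaling) held a coefficient for each of 8 genotypes, which left 8 residual degrees of freedom. The Benjamini-Hochberg adjustment ran over the 22427 tested genes, and an adjusted p under 0.05 counts as called. Fold changes are given with an SE from the test statistic. Contrasts were each mutant against WT, the triple mutant against each double mutant, nup136 loss within nup50c and nup82, and 4 non-additivity terms. The difference of the nup136 effects was added after the data were seen. No set test was made. Steps were tested on simulated data.

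The members, the lists and the tests were chosen with earlier results of these data known. Named by rule were up to 10 members with the largest and 5 with the smallest called change in a comparison, those that moved against the majority, untested members, the 6 most different pairs, up to 4 genes per further list with NAC053, NAC078 and CDC48A, the mutated genes and the 5 most alike non-members. Others, such as PAF1, RPN2A, RPN11, RPN13 and PAD2, were chosen after their values were seen. Of the identifiers, 32548 of 32833 matched RefSeq TAIR10.1, 32532 with the same start and end.

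Alternatives were DESeq2 size factors, library totals alone, the Wald test of DESeq2 1.42.0, no low-count filter, a fit of the compared genotypes alone, a replicate block, and each library left out.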

Additional observations from a re-analysis of the deposited data

Results flagged for a closer look

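Results are given here where the effect of a mutation differed between backgrounds by a test of the difference (edgeR quasi-likelihood test, adjusted p under 0.05 over all genes). All are log2 differences. In the three-way term the values were 0.66 for RPT2A, 0.56 for PAC1, 0.54 for RPN10 and 0.44 for RPT1A.

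The effect of nup136 in the nup50c nup82 background minus its effect in WT was above 0 in all 10 called genes of the 20S core. In the alpha ring it was 0.79 for PAF2, 0.49 for PAA2, 0.39 for PAE1, 0.37 for PAB2 and 0.35 for PAF1. In the beta ring it was 0.71 for PBE2, 0.39 for PBD2, 0.37 for PBA1, 0.36 for PBB2 and 0.33 for PBB1. PAB2 and PBB1 are among them although neither was called in the triple mutant against WT.

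In the ATPase ring it was 0.75 for RPT6B, 0.53 for RPT5B, 0.47 for RPT6A, 0.42 for RPT1A, 0.34 for RPT4A and 0.33 for RPT2A. RPT1B, at -0.47, was the member below 0.

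Among the RPN genes it was 0.54 for RPN9B, 0.48 for RPN8B, 0.45 for RPN1A, 0.45 for RPN2B, 0.41 for RPN6 and 0.36 for RPN1B. It was 0.36 for RPN8A, 0.34 for RPN11, 0.34 for RPN10, 0.31 for RPN12A, 0.30 for RPN5A and 0.30 for RPN3A. For CSN1 it was 0.42.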

How the results depend on the processing

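The members' direction held in the triple mutant: with all libraries kept, 36 to 46 members were higher than in WT, and leaving out a library gave 22 to 28. No value turned its sign past the threshold. Of 832 values of single genes with a library left out, 325 lost their call.

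With library totals alone, 1 member was higher in nup136, 11 higher and 0 lower in nup50c nup136 and 10 higher in nup82 nup136, each against WT. The triple mutant against nup82 nup136 had 13 higher, nup50c nup136 against nup50c 1 lower and nup82 nup136 against nup82 5 higher. The shares of all tested genes called under this scaling are not given here, so these counts stand without a background. Library totals alone moved the median of all genes by at most 0.05 (log2), in nup82 nup136 against WT. DESeq2 size factors gave 2 higher in nup82 nup136. Its Wald test gave 3 higher and 1 lower there, 1 lower in nup50c nup82 and 3 lower in the nup50c by nup82 term. Without the filter, nup50c nup136 had 0 lower, nup50c nup136 against nup50c 1 lower, and the nup50c by nup82 term 1 higher and 1 lower. A fit of the compared genotypes alone gave 3 higher and 1 lower for nup50c nup136 against nup50c, 0 higher for nup82 nup136 against nup82 and 1 lower in the nup50c by nup82 term. The causes were not tested.

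The labels do not say that replicate numbers pair samples. Deviations of same-numbered libraries correlated between -0.10 and 0.09 over 28 pairs of genotypes, so the numbers were not taken as pairs. The replicate block gave 2 higher in nup82 nup136, 1 lower in the nup50c by nup82 term and 1 lower in the nup82 by nup136 term.

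With a library left out, the counts against WT were 0 to 1 higher and 0 to 1 lower in nup136, 0 to 9 higher and 0 lower in nup50c nup136, and 0 to 3 higher in nup82 nup136. They were 30 to 40 higher and 0 to 1 lower for the triple mutant against nup50c nup82, 3 to 13 higher against nup50c nup136 and 8 to 23 against nup82 nup136. They were 1 to 7 higher and 0 to 2 lower for nup50c nup136 against nup50c, and 0 to 4 higher and 0 to 1 lower for nup82 nup136 against nup82. The nup50c by nup82 and nup82 by nup136 terms gave 0 to 1 in each direction, the three-way term 1 to 7 higher and 0 to 1 lower, and the difference of nup136 effects 16 to 22 higher and 0 to 1 lower. Where an arm kept 1 library, it was assumed to vary like the other groups. With 2 libraries a genotype, the smallest change called in the triple mutant was 0.18 (log2), and genes of low level such as RPN12B and PAC2 are limited by depth.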
